A study of Mus musculus with 8 samples.

Results

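The permeability transition pore candidates are 10 genes that encode cyclophilin D (CypD, *Ppif*) and the proteins of the mitochondrial membranes that have been proposed to form, flank or regulate the pore. They were chosen by symbol from the expression table, and all 10 of 10 were found among its 55414 genes. The members are *Ppif*, the phosphate carrier *Slc25a3*, the adenine nucleotide translocators *Slc25a4* and *Slc25a5*, the outer membrane channels *Vdac1*, *Vdac2* and *Vdac3*, the translocator protein *Tspo*, and the m-AAA protease subunits *Spg7* and *Afg3l2*. RNA-seq was performed on 8 libraries of B16F10 cells, a cultured mouse melanoma line. WT cells and CypD KO cells, in which *Ppif* was edited with CRISPR/Cas9 and resistant clones were taken under puromycin, were kept for 24 h at 21% oxygen. Control cells were transfected with empty pcDNA, and CypD OE cells with pcDNA that holds a CypD insert. Both were taken as resistant clones under G418 and kept for 24 h at 1% oxygen. Each of the 4 groups had 2 libraries. The labels do not say that the 2 libraries of a group came from separate cultures, so p-values measure the spread between these libraries, which may be technical. Oxygen, the vector and the selection of clones changed together between WT and Control and cannot be told apart. Between WT and CypD KO the edit, the transfection, puromycin and the selection of clones also changed together. Control and CypD OE were taken as separate resistant clones, so the insert and the clone cannot be told apart either.

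The permeability transition is a sudden opening of the inner mitochondrial membrane to small solutes under calcium overload and oxidative stress, which collapses the membrane potential and swells the matrix. CypD, a peptidyl-prolyl isomerase of the matrix, lowers the calcium threshold for opening and is the target of cyclosporin A, and the identity of the channel itself is debated between ATP synthase and the adenine nucleotide translocators. VDAC, TSPO and hexokinase sit on the outer membrane side, and SPG7 was proposed as a further pore component, whereas AFG3L2 is its partner in the protease that clears misfolded proteins from the inner membrane.

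Values are TPM, the share of each library's transcripts that belongs to a gene, corrected for gene length and as deposited by the authors, so levels of different genes can be set side by side, but a rise of abundant transcripts lowers the rest. Depth was not estimated here, since TPM keeps no read totals. Fold changes are on the log2(TPM + 1) scale from limma fitted to all 8 libraries, and adjusted p-values are two-sided limma values after Benjamini-Hochberg adjustment over 13526 genes (those that reached 1 TPM in 2 or more libraries), with a threshold of 0.05. All 10 members passed this filter. In bulk RNA, fewer cells of a type and less RNA per cell cannot be told apart. Between 17942 and 19692 genes were above 0 in a library, and replicates correlated at r = 0.983 to 0.985 across genes, which are not independent. All 10 melanocyte markers were at 1 TPM or more in every group, at a summed level of 15994 to 16100 TPM in WT, 12828 to 12997 in CypD KO, 20914 to 21478 in Control and 13798 to 13978 TPM in CypD OE. Leukocyte, endothelial and epithelial markers summed to 1.92 TPM or less. Hypoxia-responsive genes, 12 listed with earlier results of these data known, set the groups apart in a way that the oxygen labels do not give. All 12 were higher in Control than in WT (12.1% of all genes tested). In CypD KO, 11 were higher and 1 was lower than in WT (30.1% and 18.4%). In the CypD OE-labelled libraries, although kept at 1% oxygen, 0 were higher and 4 lower than in WT (14% and 13.7%). There, 2 were higher at an unadjusted p under 0.05 (limma). From western blots, the study reports HIF1α protein raised in B16F10 cells without CypD at normal oxygen. It also reports HIF1α lowered in human A375P cells with overexpressed CypD at 1% oxygen. Protein was not measured here.

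*Ppif* lies on chromosome 14 (GRCm39, 25694522 to 25707332, plus strand) and its main transcript has 6 exons and 1549 bases. The coding part of exon 1 is given here because the reading frame of CypD starts in it, with the start codon in capitals. It lies at chr14:25694656-25694847 (GRCm39, plus strand).
*Ppif* exon 1, coding part: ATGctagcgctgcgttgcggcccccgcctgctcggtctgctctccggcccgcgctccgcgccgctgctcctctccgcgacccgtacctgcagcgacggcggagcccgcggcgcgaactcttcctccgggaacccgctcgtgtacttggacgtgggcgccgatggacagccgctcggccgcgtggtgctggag
A gene-level TPM counts transcripts whether or not this frame is intact. The cut site of the guide was not analysed here.

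In the knockout, *Ppif* RNA was reduced but not lost. The 2 WT libraries held 50.7 and 49.99 TPM, and the 2 CypD KO libraries held 10.4 and 12.1 TPM. The groups were far apart, and the level left in the knockout was 22.4% of WT (log2 fold change -2.07 ± 0.07 (SE), 95% interval -2.24 to -1.89, limma adjusted p = 3.81e-06, n = 2 libraries a group). At 1% oxygen, Control held 44.6 and 42.3 TPM and the CypD OE-labelled libraries held 50.3 and 49.3 TPM. Both CypD OE-labelled libraries lay above both of Control, by 1.15-fold, and the difference did not pass the threshold (0.19 ± 0.07, limma adjusted p = 0.0794). An excess of *Ppif* RNA past the threshold was thus not seen under the overexpression label, and the group is called by its label throughout. From western blots, the study reports overexpressed CypD protein in its stable clones and no CypD protein in the knockout. Only RNA was measured here, so neither protein result is tested by these values. The methods write the insert as *Ppif*, the mouse form of the symbol, and the genotype label writes PPIF, the human form. The species of the insert is not stated beyond this, and the values count transcripts of the mouse gene. Set beside WT, the CypD OE-labelled libraries differed by -0.016 (95% interval -0.19 to 0.16, limma adjusted p = 0.898) and overlapped with them. Control lay below WT in both libraries, at 0.863 of its mean, and this also missed the threshold (-0.21 ± 0.07, limma adjusted p = 0.0826). In order, *Ppif* RNA was lowest in CypD KO, which differed from each of the other 3 groups, and among those 3 no pair passed the threshold. At an unadjusted p under 0.05 (limma), *Ppif* differed in 5 of the 6 contrasts between groups, all but CypD OE vs WT. A missed threshold is therefore not read here as no difference.

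**Figure D1:**
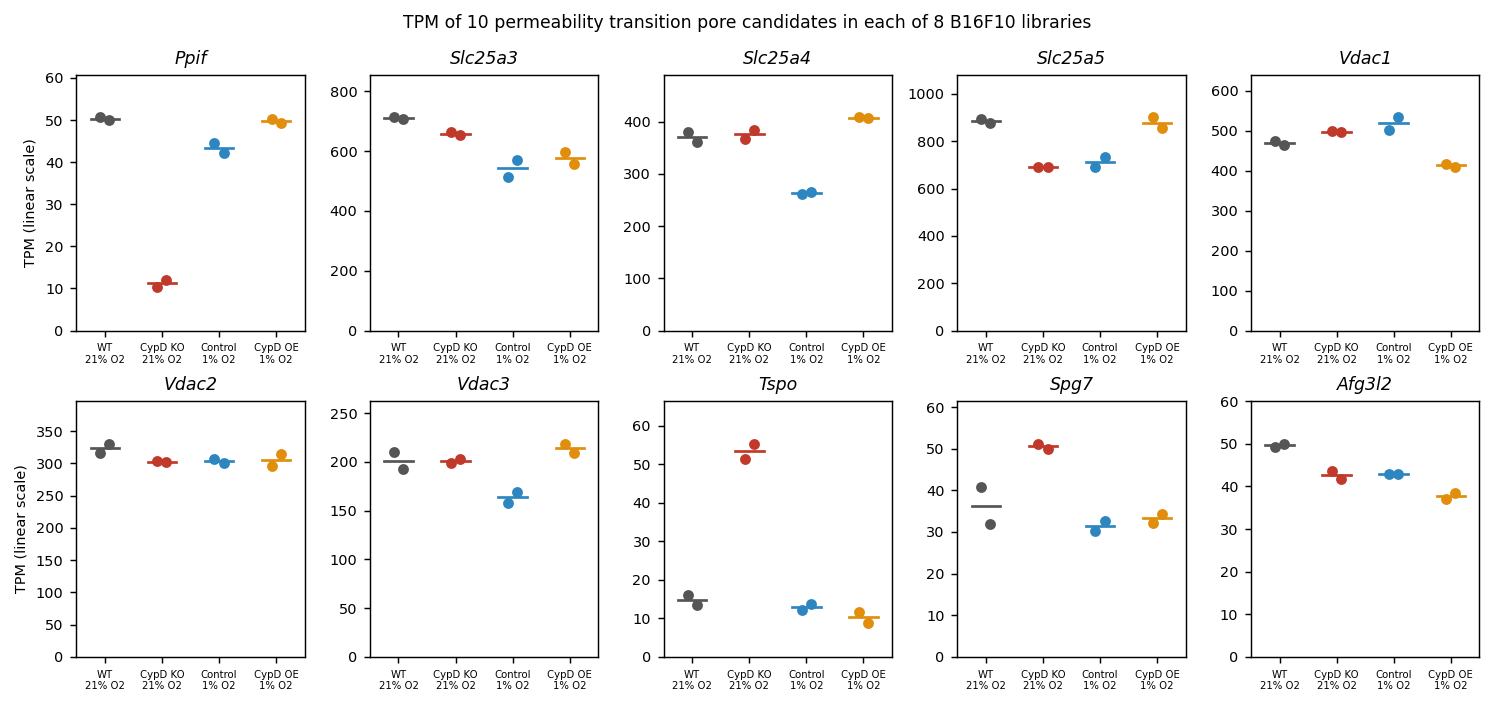
TPM (linear axis from 0, one panel per gene with its own range) of the 10 candidates in the 2 libraries of each group (points) with the group mean (bar). *Ppif* stands at 10.4 to 12.1 TPM in CypD KO against 42.3 to 50.7 TPM elsewhere, *Tspo* at 51.5 to 55.4 TPM in CypD KO against 8.87 to 15.98 TPM elsewhere, and *Vdac2* stays between 297 and 331 TPM in all libraries.

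The study also examined the microRNAs miR-23a and miR-27a as regulators of CypD, with a reporter assay on the human *PPIF* 3′ untranslated region. Their mouse sequences and their seed matches in mouse *Ppif* are shown here, with the seed (bases 2 to 8) in capitals. The mature sequences are from RefSeq, with the miRNA genes on chromosome 8 (GRCm38.p6, plus strand).
mmu-miR-23a-3p: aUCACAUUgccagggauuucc
mmu-miR-27a-3p: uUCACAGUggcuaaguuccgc
The seeds are not the same and match different places. In the 866 bases after the stop codon of the main *Ppif* transcript, the reverse complement of the miR-23a-3p seed occurs at 2 places and that of miR-27a-3p at 1 place, shown with the match in capitals and positions counted from 1 at the first base after the stop codon.
miR-23a-3p match at bases 667 to 673: cggtctttctgctcAATGTGAatt
miR-23a-3p match at bases 835 to 841: gtgtgttcatctcaAATGTGAtaa
miR-27a-3p match at bases 569 to 575: cttccctcctggtcACTGTGAatc
These are matches of letters, not measured sites. The hairpin genes *Mir23a*, *Mir27a* and *Mir24-2* were listed at 0 in all 8 libraries of total RNA, which were not made to capture small RNAs, so the miRNAs themselves were not measured. The opposite-strand transcript *Ppifos* was also listed at 0 throughout.

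Among 8443 genes with a mean of at least 10 TPM, those whose centred log2(TPM + 1) lay nearest to that of *Ppif* over the 8 libraries were *Tlcd4* (root mean square difference 0.16), *Pycard* (0.17), *Ccdc85c* (0.20), *Rassf2* (0.21) and *Lpar5* (0.23). All 5 were lowest in CypD KO, as *Ppif* was, which follows from how they were picked. *Pycard*, which encodes the inflammasome adaptor ASC, held 13.3 and 12.7 TPM in WT and 3.05 and 3.03 TPM in CypD KO, and *Tlcd4* held 22.0 and 22.7 TPM in WT and 4.83 and 4.01 TPM in CypD KO. None of the other 9 candidates came close, the nearest being *Slc25a5* at 0.76. This distance weighs the large drop of *Ppif* in CypD KO, the line in which it was edited. It is therefore not read as a trait of the other candidates.

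The adenine nucleotide translocators exchange ADP and ATP across the inner membrane. *Slc25a4* (ANT1) is the form of heart and muscle, and *Slc25a5* (ANT2) that of dividing cells. *Slc25a4* lies on chromosome 8 (46656538 to 46664325, minus strand) and *Slc25a5* on chromosome X (36059223 to 36062462, plus strand), both in GRCm39. Windows of the 250 bases before their annotated starts are shown because the pair moved together between Control and the CypD OE-labelled libraries but only *Slc25a5* passed the threshold in the knockout, with that of *Ppif* beside them. The windows are from RefSeq (GRCm38.p6), written in the direction of the gene. Capitals mark the motifs ACGTG (a form of the core of hypoxia response elements), CCAAT and TATAA on either strand. Other forms of that core, such as GCGTG, were not searched and are not marked, so a window without ACGTG may still hold them.
Ppif at chr14:25693920-25694169, plus strand: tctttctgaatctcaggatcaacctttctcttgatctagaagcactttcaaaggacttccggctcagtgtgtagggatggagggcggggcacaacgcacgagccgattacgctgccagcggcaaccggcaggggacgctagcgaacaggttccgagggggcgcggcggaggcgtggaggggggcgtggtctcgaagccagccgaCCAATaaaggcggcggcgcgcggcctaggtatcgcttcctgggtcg
Slc25a4 at chr8:46211063-46211312, minus strand: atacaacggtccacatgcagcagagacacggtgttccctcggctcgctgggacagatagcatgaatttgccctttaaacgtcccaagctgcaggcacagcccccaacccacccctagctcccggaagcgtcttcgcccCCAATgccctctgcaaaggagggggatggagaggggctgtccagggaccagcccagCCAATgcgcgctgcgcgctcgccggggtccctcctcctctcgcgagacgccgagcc
Slc25a5 at chrX:36795347-36795596, plus strand: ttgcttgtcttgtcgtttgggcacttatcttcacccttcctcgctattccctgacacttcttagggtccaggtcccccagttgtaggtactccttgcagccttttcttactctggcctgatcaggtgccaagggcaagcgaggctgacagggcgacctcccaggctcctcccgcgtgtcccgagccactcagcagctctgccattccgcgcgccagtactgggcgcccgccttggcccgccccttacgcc
CCAAT occurs once before *Ppif* and at 2 places before *Slc25a4*, and none of the 3 motifs occurs in the 250 bases before *Slc25a5*. Over windows of 300 bases that run 50 bases past the start, 7 windows of 6 members were available. ACGTG was found in 3 of 7 against 19.6% of all 32851 windows, CCAAT in 2 of 7 against 37.4%, and TATAA in 2 of 7 against 24.9%, with both strands searched and no overlap between motifs counted. The windows with ACGTG belong to *Slc25a3*, *Vdac1* and *Spg7*. A match is a description of the letters only.

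*Slc25a5* was the most abundant of the 10 candidates and fell in the knockout, whereas *Slc25a4* did not pass the threshold. *Slc25a5* measured 896 and 879 TPM in WT and 690 and 692 TPM in CypD KO. The groups were separate, with CypD KO at 77.8% of WT (-0.36 ± 0.04, limma adjusted p = 3.47e-04). *Slc25a4* measured 380 and 361 TPM in WT and 368 and 383 TPM in CypD KO, overlapping ranges that gave a log2 fold change of 0.019 (95% interval -0.064 to 0.10, limma adjusted p = 0.682) and a value of the other sign, -0.095, after rescaling by the median of ratios. In Control both translocators were below WT. *Slc25a4* measured 261 and 265 TPM there (-0.49 ± 0.03, limma adjusted p = 2.48e-04), and *Slc25a5* measured 691 and 734 TPM (-0.32 ± 0.04, limma adjusted p = 0.00197). Both were above Control in the CypD OE-labelled libraries, *Slc25a4* at 409 and 406 TPM (1.55-fold, 0.63 ± 0.03, limma adjusted p = 3.71e-05) and *Slc25a5* at 902 and 855 TPM (1.23-fold, 0.30 ± 0.04, limma adjusted p = 0.00126). Comparisons that share the Control libraries are not independent of each other.

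The order of the groups differed between the pair. *Slc25a4* was lowest in Control, higher in WT and CypD KO, whose ranges overlapped, and highest in the CypD OE-labelled libraries, which were above WT (0.14, limma adjusted p = 0.0280) and above CypD KO (-0.12 for CypD KO against them, limma adjusted p = 0.0292). The first of these calls was lost without WT replicate 2 or either CypD OE replicate (0.0982 to 0.127) and after rescaling by the median of ratios (0.11, limma adjusted p = 0.0719), and the second without CypD KO replicate 1 or either CypD OE replicate (0.0910 to 0.149). *Slc25a5* formed a low pair, CypD KO and Control, which differed by -0.045 (limma adjusted p = 0.391, and -0.14 with 0.0140 after rescaling by the median of ratios), and a high pair, WT and the CypD OE-labelled libraries, which differed by -0.015 (limma adjusted p = 0.803). The ratio of *Slc25a5* to *Slc25a4* was 2.40 ± 0.05 (SD, n = 2) in WT, 1.84 ± 0.05 in CypD KO, 2.71 ± 0.08 in Control and 2.16 ± 0.07 in the CypD OE-labelled libraries. The 2 libraries of each group lay closer to each other than to those of any other group. Summed, the pair held 1258 ± 25.1 TPM in WT, 1066 ± 12.9 in CypD KO, 976 ± 33.5 in Control and 1286 ± 34.7 TPM in the CypD OE-labelled libraries. Per 100 TPM of translocator, *Ppif* stood at 4.0 in WT, 1.06 in CypD KO, 4.45 in Control and 3.87 in the CypD OE-labelled libraries. The testis isoform *Slc25a31* was at 0.14 TPM or less. Copies of *Slc25a5* in the table, with at least 85% identity over 200 bases, summed to 2.09 to 5.0 TPM, at most 0.585% of its own value, and the opposite-strand gene *Steep1* that overlaps it held 32.8 to 44.0 TPM.

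*Slc25a3*, which imports the phosphate for ATP synthesis and whose protein binds CypD, was lower than in WT in both groups kept at 1% oxygen. It measured 713 and 708 TPM in WT and 664 and 653 TPM in CypD KO. These ranges did not overlap, and the difference missed the threshold (-0.11 ± 0.05, 95% interval -0.24 to 0.019, limma adjusted p = 0.136). Control held 514 and 570 TPM and the CypD OE-labelled libraries 598 and 558 TPM, so that these 2 groups overlapped (0.093, limma adjusted p = 0.226, and 0.0427 without Control replicate 2). Control was at 76.3% of WT (-0.39 ± 0.05, limma adjusted p = 0.00321), and the CypD OE-labelled libraries were at 81.3% of WT (-0.30 ± 0.05, limma adjusted p = 0.00776). CypD KO lay between, higher than Control by 0.28 (limma adjusted p = 0.00544). After rescaling by the median of ratios, CypD KO was also lower than WT (-0.22, limma adjusted p = 0.00687), as it was when the 4 libraries of that comparison were fitted alone (limma adjusted p = 0.0227).

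**Figure D2:**
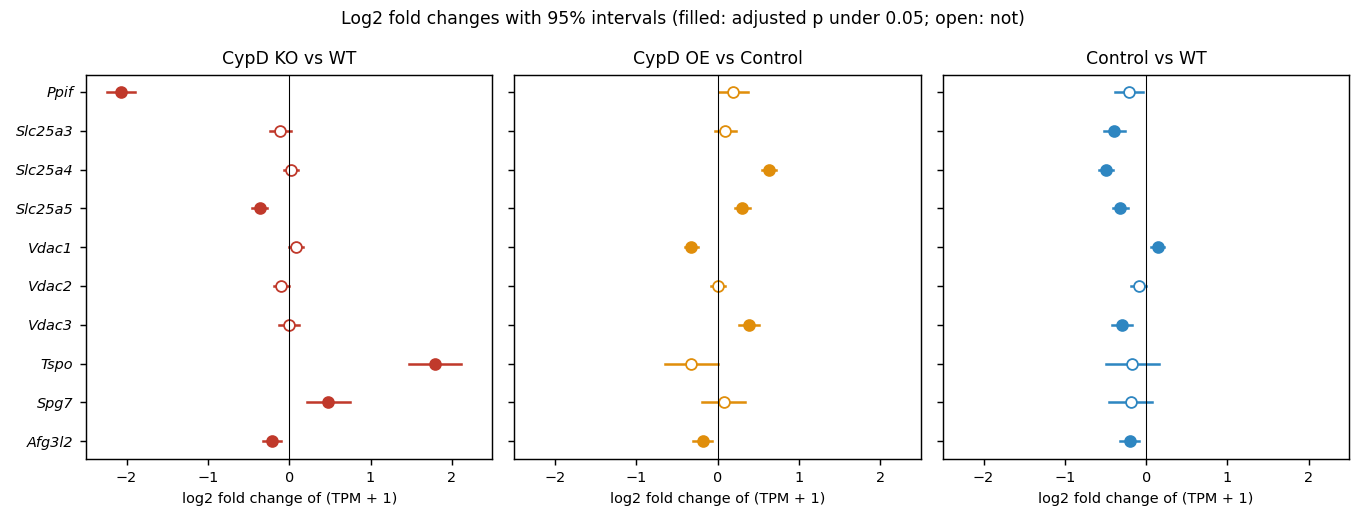
Log2 fold change of (TPM + 1) with its 95% interval (bar) for each candidate in 3 comparisons, filled where the adjusted p is under 0.05. *Ppif* at -2.07 and *Tspo* at 1.79 stand apart in CypD KO vs WT, and in the other comparisons all values lie between -0.49 and 0.63.

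**Figure D3:**
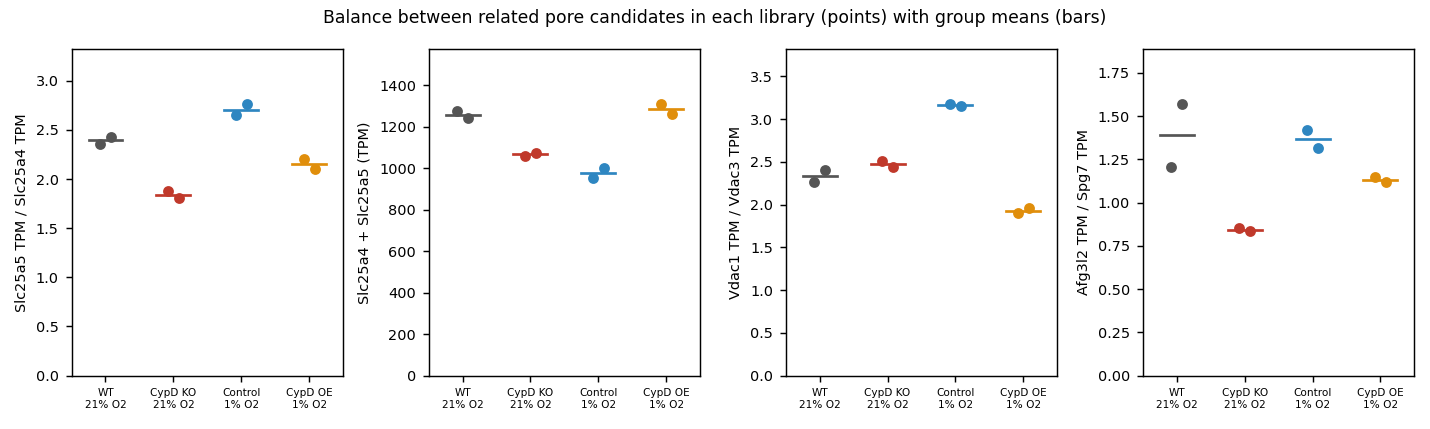
The ratio of *Slc25a5* to *Slc25a4*, their sum in TPM, the ratio of *Vdac1* to *Vdac3* and that of *Afg3l2* to *Spg7* in the 2 libraries of each group (points, axes from 0) with the group mean (bar). *Vdac1* over *Vdac3* is highest in Control at 3.16 and lowest in the CypD OE-labelled libraries at 1.93, and *Afg3l2* over *Spg7* is lowest in CypD KO at 0.843.

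The VDACs carry metabolites and ions across the outer membrane, and VDAC1 is the docking site of hexokinase. Their sum was 995 ± 9.44 TPM in WT, 1001 ± 0.728 in CypD KO, 986 ± 25.5 in Control and 933 ± 2.06 TPM in the CypD OE-labelled libraries, whereas the shares of the isoforms differed more. In CypD KO vs WT none of the 3 passed the threshold. *Vdac1* measured 475 and 464 TPM in WT and 499 and 496 TPM in CypD KO (0.084, limma adjusted p = 0.0822, and -0.030 after rescaling by the median of ratios). *Vdac3*, the least abundant of the family here, measured 210 and 193 TPM in WT and 199 and 203 TPM in CypD KO, overlapping ranges with a 95% interval of -0.13 to 0.13.

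At 1% oxygen *Vdac1* and *Vdac3* went opposite ways. *Vdac1* measured 502 and 533 TPM in Control and 416 and 410 TPM in the CypD OE-labelled libraries, with both of the latter below both of the former (-0.33 ± 0.03, limma adjusted p = 5.22e-04). *Vdac3* measured 158 and 170 TPM in Control and 219 and 209 TPM in the CypD OE-labelled libraries, a 1.31-fold higher mean (0.39 ± 0.05, limma adjusted p = 0.00185). Against WT, Control was higher in *Vdac1* (0.14 ± 0.03, limma adjusted p = 0.0257) and lower in *Vdac3* (-0.30 ± 0.05, limma adjusted p = 0.00923). The first of these calls was lost without WT replicate 1, WT replicate 2 or Control replicate 2 (limma adjusted p = 0.0652, 0.117 and 0.0940), and the second without Control replicate 1 (0.05005). Fitted on the 4 libraries of that comparison alone, neither passed (limma adjusted p = 0.0972 and 0.0538). *Vdac1* made up 47.2% ± 0.307 of the VDAC sum in WT, 49.7% ± 0.205 in CypD KO, 52.5% ± 0.881 in Control and 44.3% ± 0.504 in the CypD OE-labelled libraries, and *Vdac3* 20.2% ± 1.00, 20.1% ± 0.330, 16.6% ± 0.397 and 23.0% ± 0.790 (SD, n = 2). The ratio of *Vdac1* to *Vdac3* was 3.16 ± 0.02 in Control and 1.93 ± 0.04 in the CypD OE-labelled libraries, on either side of 2.33 ± 0.10 in WT and 2.47 ± 0.05 in CypD KO. Of 2 annotated *Vdac1* starts, the second has none of the 3 motifs in its window, and no *Vdac3* window was available. The 250 bases before the first start are shown because *Vdac1* ran against *Vdac3* here. They hold an ACGTG on the opposite strand, in capitals near the end (RefSeq, GRCm38.p6).
Vdac1 at chr11:52360601-52360850, plus strand: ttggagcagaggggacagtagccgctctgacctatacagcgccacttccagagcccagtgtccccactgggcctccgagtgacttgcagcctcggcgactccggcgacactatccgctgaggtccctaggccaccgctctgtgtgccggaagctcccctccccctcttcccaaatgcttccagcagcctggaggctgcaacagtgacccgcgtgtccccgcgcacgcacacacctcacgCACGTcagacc

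*Vdac2*, the isoform that holds BAK in check, was the steadiest candidate. It ranged from 297 to 331 TPM over the 8 libraries, a span of 1.12-fold, and passed the threshold in 0 of 6 contrasts between groups with limma. At an unadjusted p under 0.05 it differed in 1 of the 6, CypD KO vs WT (-0.096, 95% interval -0.19 to -0.0050, limma adjusted p = 0.0776). After rescaling by the median of ratios that difference was -0.21 (limma adjusted p = 0.00675). Copies found by the same rule summed to at most 2.22% of *Vdac3*, 0.268% of *Vdac2* and 0.165% of *Vdac1*.

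*Tspo* showed the largest rise of the 10 candidates. TSPO binds cholesterol and porphyrins in the outer membrane, and its ligands have long been studied as pore modulators. *Tspo* measured 15.98 and 13.5 TPM in WT and 51.5 and 55.4 TPM in CypD KO. The knockout libraries stood 3.63-fold above WT (1.79 ± 0.14, 95% interval 1.47 to 2.12, limma adjusted p = 7.83e-05). Control measured 12.3 and 13.6 TPM, overlapping with WT (-0.17, limma adjusted p = 0.410), and the CypD OE-labelled libraries measured 11.6 and 8.87 TPM. These lay below Control without passing the threshold (-0.32, limma adjusted p = 0.107, and 0.0372 without CypD OE replicate 1) and below WT past it (-0.49 ± 0.14, limma adjusted p = 0.0363), a call that was lost without either WT replicate (0.164 and 0.0523) or without CypD OE replicate 2 (a log2 fold change of -0.32, 0.150). *Tspo* was the rarest candidate outside the knockout and stood above *Ppif*, *Afg3l2* and, narrowly, *Spg7* within it.

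Markers of other cells were looked at beside *Tspo*, which leukocytes and fibroblasts express. Of 6 leukocyte markers, 3 were at 0 in all libraries, and their sum was 1.86 to 1.92 TPM in CypD KO, nearly all *Lyz2*, against 0.17 to 0.64 TPM in WT. Of 6 fibroblast markers, 2 reached 1 TPM in both libraries of a group and 1 was at 0 throughout, and their sum was 34.2 to 37.2 TPM in CypD KO against 15.6 to 17.7 TPM in WT. Within that sum *Postn* rose in CypD KO (8.04 and 8.07 to 34.8 and 31.2 TPM) while *Col1a2* fell (9.03 and 6.87 to 1.09 and 2.17 TPM). Their part in the *Tspo* result was not tested. *Postn* was also the third of the genes nearest to *Tspo* in pattern (0.17), after *Cryab* (0.14), a small heat shock protein, and *Trp53inp1* (0.16). On the opposite strand *Ttll12* and *Mcat* overlap *Tspo*, and they held 25.6 to 32.4 and 6.51 to 13.9 TPM. *Tspo2* and *Tspoap1* were listed at 0 in all 8 libraries. Of the 5 TSPO partners tested, 2 were higher (30.1% of all genes tested) and 0 lower (18.4% of all genes) in CypD KO (limma, 0 lower at an unadjusted p under 0.05). They were *Dbi*, which encodes the endogenous TSPO ligand (1448 to 2137 TPM, 0.56 ± 0.03, limma adjusted p = 1.08e-05), and *Acbd3* (0.16 ± 0.04, limma adjusted p = 0.0173). Their median log2 fold change was 0.16, beside 0.089 over all genes tested.

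*Spg7* and *Afg3l2* parted in the knockout. *Spg7* measured 40.8 and 31.9 TPM in WT, the widest split between the WT replicates as a ratio among the candidates, and 51.3 and 50.01 TPM in CypD KO. Both knockout libraries were above both WT libraries (1.39-fold, 0.48 ± 0.11, limma adjusted p = 0.0111), and without CypD KO replicate 1 the adjusted p was 0.0598. Leaving out 1 library gave 0.30 (without WT replicate 2, limma adjusted p = 0.0255) to 0.65 (without WT replicate 1). *Afg3l2* measured 49.2 and 50.1 TPM in WT and 43.7 and 41.7 TPM in CypD KO (-0.21 ± 0.05, limma adjusted p = 0.00899, and 0.0506 without CypD KO replicate 2). *Spg7* in CypD KO was above each of the other 3 groups, among which no pair passed the threshold, although Control was below WT without WT replicate 2 (limma adjusted p = 0.0332). Control held 30.3 and 32.7 TPM and the CypD OE-labelled libraries 32.1 and 34.4 TPM, overlapping ranges.

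*Afg3l2* instead stepped down from WT to CypD KO and Control, which overlapped (-0.010, limma adjusted p = 0.885), and on to the CypD OE-labelled libraries. Control measured 43.0 TPM in both libraries and the CypD OE-labelled libraries 36.9 and 38.4 TPM (-0.19 ± 0.05, limma adjusted p = 0.0205). That call was lost without Control replicate 1, Control replicate 2 or CypD OE replicate 1 (limma adjusted p = 0.0752, 0.0770 and 0.0996), and the call for Control below WT (-0.20 ± 0.05, limma adjusted p = 0.0226) was lost without any 1 of its 4 libraries (0.0694 to 0.0960) and when those 4 were fitted alone (0.0511). Between the extremes, the CypD OE-labelled libraries were at 75.9% of WT (-0.39 ± 0.05, limma adjusted p = 0.00164). The ratio of *Afg3l2* to *Spg7* was 1.39 ± 0.26 (SD, n = 2) in WT, 0.843 ± 0.013 in CypD KO, 1.37 ± 0.07 in Control and 1.13 ± 0.02 in the CypD OE-labelled libraries. *Tubb6*, which overlaps *Afg3l2* on the opposite strand, held 38.9 to 124 TPM, and whether reads were assigned by strand is not given in the sources used here.

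Over the 10 candidates, 2 were higher and 3 lower in CypD KO than in WT, where 30.1% of all genes tested were higher and 18.4% lower. In the CypD OE-labelled libraries, 3 were higher and 2 lower than in Control, against 19% and 18.3% of all genes. In Control, 1 was higher and 5 were lower than in WT, against 12.1% and 12.1% of all genes. Median log2 fold changes of the candidates were -0.049, 0.084 and -0.21 in these comparisons, beside 0.089, 0.0021 and 0.012 over all genes tested. Between groups that differ in both oxygen and line, 1 candidate was higher and 4 were lower in the CypD OE-labelled libraries than in WT (14% and 13.7% of all genes), 5 were higher and 1 lower in CypD KO than in Control (27.4% and 16.5%), and 5 were higher and 3 lower in CypD KO than in the CypD OE-labelled libraries (29.6% and 19.3%). Every candidate but *Vdac2* passed the threshold in at least 1 of the first 3 comparisons. The share of all genes tested that did so was not counted, so this is not read as a trait of the candidates. Rescaling by the median of ratios turned the split of all calls in CypD KO vs WT from 62.1% higher to 47.9% higher, with 3204 genes higher and 3482 lower, and moved the median of all genes from 0.089 to -0.0074. It likewise moved the share of higher calls from 62.4% to 49.1% in CypD KO vs Control and from 60.5% to 50.2% in CypD KO vs CypD OE.

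**Figure D4:**
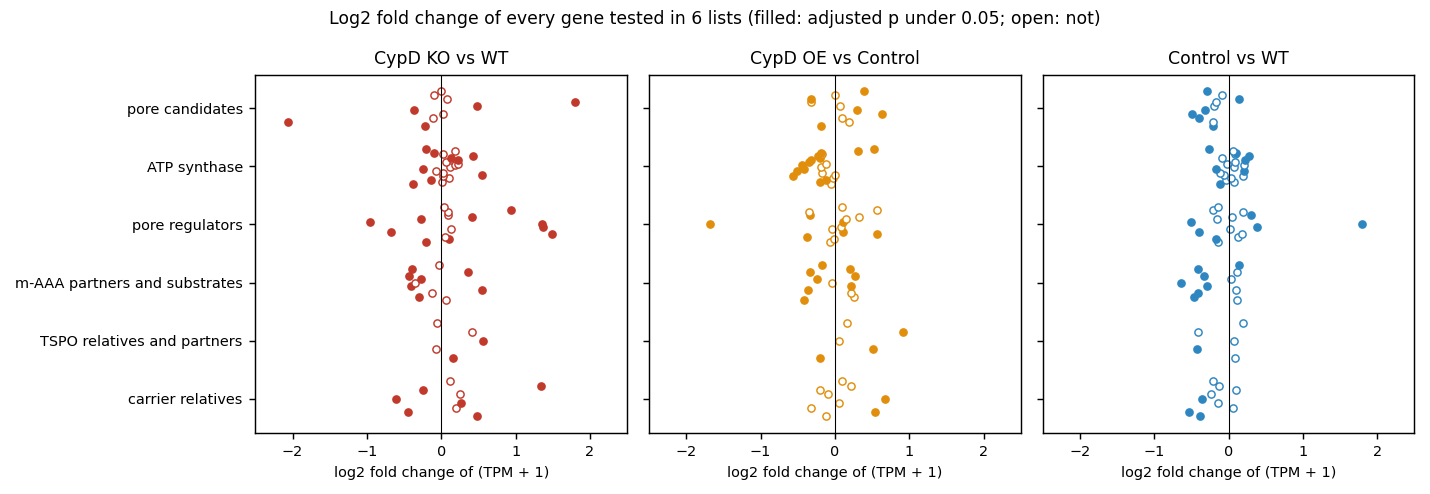
Log2 fold change of (TPM + 1) of each gene tested in the candidates and 5 related lists, in 3 comparisons (points, filled where the adjusted p is under 0.05). In CypD OE vs Control, 11 of 20 ATP synthase genes are lower and 2 higher (18.3% and 19% of all genes), the 2 being encoded in the mitochondrial genome.

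ATP synthase, the other proposed channel, was followed through 20 genes of its subunits and its inhibitor, several of them under older symbols in the table, with group means given below. In CypD KO vs WT, 4 were higher, 5 lower and 11 did not pass the threshold (median 0.045), against 30.1% and 18.4% of all genes higher and lower. The largest differences were in *Atp5if1*, which encodes the inhibitor IF1 that blocks hydrolysis of ATP by the enzyme (259 to 380 TPM, 0.55 ± 0.04, limma adjusted p = 4.24e-05), and in the stalk subunit *Atp5pd* (417 to 562 TPM, 0.43 ± 0.04, limma adjusted p = 1.28e-04). In the CypD OE-labelled libraries, 2 were higher and 11 lower than in Control (median -0.19), against 19% and 18.3% of all genes. *Atp5f1e*, the epsilon subunit, fell from 242 to 162 TPM (-0.57 ± 0.11, limma adjusted p = 0.00686), and the mitochondrially encoded *mt-Atp8* rose from 39655 to 57077 TPM (0.53 ± 0.02, limma adjusted p = 1.07e-05). The second gene that rose was *mt-Atp6*, which overlaps *mt-Atp8* on the same strand, so the split of reads between them is uncertain. In Control vs WT, 4 were higher and 3 lower (median 0.066), against 12.1% each way over all genes, led by *Atp5pd* (0.28) and *mt-Atp8* (-0.26).

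Regulators of the pore include hexokinases, BCL2 proteins and calcium handling genes. Of 15 tested, 6 were higher and 4 lower in CypD KO than in WT (median 0.091), against 30.1% and 18.4% of all genes. *Bcl2l1*, the antiapoptotic BCL-XL, rose from 29.3 to 84.0 TPM (1.49 ± 0.07, limma adjusted p = 1.19e-05), and *Hk1*, a hexokinase that binds VDAC, from 61.6 to 161 TPM (1.37 ± 0.04, limma adjusted p = 1.17e-06). Between the CypD OE-labelled libraries and Control, 3 were higher and 3 lower, against 19% and 18.3% of all genes. They were led by *Hk2* (143 to 43.8 TPM, -1.69 ± 0.04, limma adjusted p = 1.52e-06) and *Bcl2l1* (0.57 ± 0.07, limma adjusted p = 0.00121). *Hk2*, the other hexokinase that docks on VDAC and itself a hypoxia-responsive gene, was also the leading gene in Control vs WT (40.4 to 143 TPM, 1.80 ± 0.04, limma adjusted p = 2.56e-06). There 3 regulators were higher and 3 lower, against 12.1% each way over all genes, the lower ones including the chaperonin *Hspd1* (-0.51). The mitochondrial creatine kinase *Ckmt1* was listed at 0 in all libraries and *Ckmt2* at 0.07 TPM or less.

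Among 11 partners and substrates of the m-AAA protease, 2 were higher and 5 lower in CypD KO than in WT (median -0.27), against 30.1% and 18.4% of all genes. *Oma1*, a stress protease, rose from 8.24 to 12.5 TPM (0.54 ± 0.11, limma adjusted p = 0.00698), and *Phb2*, a prohibitin that scaffolds the protease, fell from 361 to 267 TPM (-0.43 ± 0.04, limma adjusted p = 1.20e-04). In the CypD OE-labelled libraries, 3 were higher and 5 lower than in Control (19% and 18.3% of all genes), led by *Afg3l1*, the rodent paralog of *Afg3l2* (-0.42), and *Oma1* (-0.36). In Control vs WT, 1 was higher and 6 were lower (12.1% each way over all genes), led by the rhomboid protease *Parl* (-0.64) and by *Maip1* (-0.47).

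Of 9 further mitochondrial carriers tested, 3 were higher and 3 lower in CypD KO than in WT, against 30.1% and 18.4% of all genes. *Slc25a24*, the calcium-dependent carrier of ATP-Mg and phosphate, rose from 15.3 to 40.2 TPM (1.34 ± 0.08, limma adjusted p = 3.27e-05), and the aspartate-glutamate carrier *Slc25a13* fell from 117 to 76.4 TPM (-0.61 ± 0.05, limma adjusted p = 1.04e-04). In the CypD OE-labelled libraries, 2 were higher than in Control and 0 lower (limma, 2 lower at an unadjusted p under 0.05), against 19% and 18.3% of all genes. The 2 were *Slc25a13* (0.67) and the dicarboxylate carrier *Slc25a10* (0.55). In Control vs WT, 0 were higher (limma, 0 higher at an unadjusted p under 0.05) and 3 lower, against 12.1% each way over all genes. The lower ones were led by *Slc25a10* (-0.53) and the citrate carrier *Slc25a1* (-0.39). For TSPO partners, 2 were higher and 1 lower in the CypD OE-labelled libraries than in Control (19% and 18.3% of all genes), led by *Star* (1.34 to 3.38 TPM, 0.91) and *Atad3a* (0.51). In Control, 0 were higher (limma, 1 higher at an unadjusted p under 0.05) and 1 lower than in WT (*Atad3a*, -0.42), against 12.1% each way over all genes.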

How the data were processed

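Ribosome-depleted total RNA of 8 libraries was sequenced by the authors in paired-end reads of 150 bases, and, per the submitters' processing notes and the methods, trimmed with cutadapt 3.4, aligned to GRCm39 with STAR 2.7.8a and quantified with RSEM 1.3.1. Per-gene TPM, normalised by the authors to a common total, were deposited, and depth was not estimated. DESeq2 was used by the authors on counts, which were not used here. Groups came from the labels, and replicate numbers from the library names (no suffix as 1, the suffix 1 as 2). Genes that reached 1 TPM in 2 or more libraries (13526 of 55414, of which 30708 were listed at 0 throughout) were tested as log2(TPM + 1), with a pseudocount of 1, in limma 3.58.1 (R 4.3.3), with a mean for each of 4 groups and eBayes with trend. The fit was checked on simulated data. An exact permutation test of 2 against 2 libraries cannot give a p below 0.333 and was not used. Alternatives were a pseudocount of 0.1, filters of 0 and 5 TPM, median-of-ratios scaling, fits of 4 libraries, eBayes without trend, a replicate block and leaving out each library. Same-numbered libraries deviated together with correlations of -0.03 to 0.11, so the numbers were not taken as pairs. Copies were sought with BLAST 2.17.0 (at least 85% identity over 200 bases). The members and lists were chosen with earlier results of these data known. The genes named are the 10 members, and from each related list the 2 largest differences past the threshold in each of the first 3 comparisons and those listed at 0. They also include the nearest 5 genes to a member in pattern, genes that overlap or copy a member, and markers. *Mcat*, *Ttll12*, *Tubb6*, *Steep1*, *Postn*, *Col1a2*, *Lyz2* and *mt-Atp6* were named after their values were seen. Windows before gene starts were found for 6 of the 9 members searched.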

Additional observations from a re-analysis of the deposited data

How the results depend on the processing

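In Control vs WT each count, of candidates, ATP synthase genes and all genes, higher and lower, moved by more than 1.5 times under at least 1 alternative. In the other comparisons fewer counts did so. With median-of-ratios scaling, 5 candidates were lower and 2 ATP synthase genes higher in CypD KO vs WT. Without the trend, 3 ATP synthase genes were lower there. In CypD OE vs Control, 1 ATP synthase gene was higher with no filter, with 4 libraries or without the trend. In Control vs WT these 3 settings each gave 0 candidates higher and 1 ATP synthase gene lower, and the last 2 gave 2 ATP synthase genes higher. The fit of 4 libraries gave 3 candidates lower, and 998 genes higher and 983 lower. Leaving out 1 library gave 1 to 2 candidates higher and 2 to 4 ATP synthase genes higher in CypD KO vs WT, and 1 to 2 candidates lower and 1 to 2 ATP synthase genes higher in CypD OE vs Control. In Control vs WT it gave 0 to 1 candidates higher and 3 to 5 lower, 939 to 1073 genes higher and 983 to 1082 lower, and 2 to 5 ATP synthase genes higher and 1 to 2 lower.

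Signs turned for values that had not passed the threshold. With median-of-ratios scaling these were *Slc25a4* (-0.095) and *Vdac1* (-0.030) in CypD KO vs WT and *Vdac2* (-4.07e-04) in CypD OE vs Control. Leaving out 1 library gave log2 fold changes of -0.016 to 0.055 for *Slc25a4* and -0.061 to 0.059 for *Vdac3* in CypD KO vs WT. For *Vdac2* it gave -0.038 to 0.047 in CypD OE vs Control, -0.022 to 0.0091 in CypD KO vs Control and -0.054 to 0.031 in CypD KO vs CypD OE. It gave -0.054 to 0.023 for *Slc25a5* and -0.29 to 0.059 for *Spg7* in CypD OE vs WT, and -0.043 to 0.023 for *Afg3l2* in CypD KO vs Control. The cause was not tested. No called difference of a candidate changed sign under any of these alternatives.

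With the replicate block, which shares only library numbers, *Slc25a4* lost its calls in CypD OE vs WT (limma adjusted p = 0.0508) and CypD KO vs CypD OE (0.0506), and the other 58 of 60 candidate values kept their direction and side of the threshold. TPM holds no depth, so the precision of *Tspo* and *Spg7*, the candidates with the widest spread, cannot be tied to reads.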
